A study of Mus musculus with 9 samples.

Results

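The genes described here are 53 mouse genes that make and acidify the lysosome, out of the 55401 genes in the deposited expression table. They were taken from the table by name, although the list was chosen with earlier results of these data known. The list holds 11 peptidases (the cathepsins, legumain and Tpp1), 11 glycosidases and related enzymes of glycan breakdown, 7 lipid enzymes and lipid transfer proteins, 6 membrane proteins, progranulin (Grn), 3 regulators (Tfeb, Tfe3 and Mcoln1) and 14 genes of the V-ATPase, of which 4 belong to the membrane sector V0, 8 to the cytosolic sector V1 and 2 are accessory. RNA was sequenced from RAW264.7 cells, a wild-type mouse macrophage line from an Abelson leukemia virus tumor of a male mouse, cultured with the vehicle DMSO (DMSO group), with lipopolysaccharide in DMSO (LPS group) or with lipopolysaccharide and the indole compound skatole (LPS + Ska group). Each group had 3 samples, numbered 5, 6 and 7, and the labels give 24 h of treatment where the methods section gives 48 h. There was no group with skatole alone, so its action on resting cells is not part of these comparisons, and all samples came from a single cell line. Nothing in the labels says that the samples were separate cultures, so p-values measure the spread between these samples only.

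The lysosome breaks down proteins, glycans, lipids and nucleic acids that reach it by endocytosis, phagocytosis and autophagy. Its hydrolases work in acid, and the V-ATPase supplies that acid by coupling ATP hydrolysis in V1 to proton movement through V0. Many lysosomal genes carry a CACGTG-type element near their start that is bound by TFEB and TFE3, and macrophages, which degrade much engulfed material, express the system at high levels.

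Levels are in TPM, transcript abundances scaled to transcript length and to a fixed total per sample, which can be set side by side between genes. TPM keeps no sequencing depth, so depth is unknown and no counting interval could be given. A technical feature of the table touches every result. In the LPS and the LPS + Ska groups, replicate 5 lay exactly midway between replicate 6 and replicate 7 for all 17950 and all 17658 genes compared, to within 1e-05 TPM, while in DMSO this held for 10 of 16674 genes. Each LPS-treated group thus carries only 2 free values for a gene, and its SD over 3 columns is set by 1 difference. Tests were repeated with those 2 values recovered from the columns, and the adjusted p from them is called the recovered adjusted p. Exons of Ctsa, Ctsb, Ctsz, Cln3, Hexa, Idua, Lamp1, Npc1 and Ppt1 overlap genes on the opposite strand that reached at least 1 TPM. The strand setting of the counting is not given in the sources used here, so reads of these genes and their neighbours may be mixed. For Idua, with a mean of 9.23 TPM, the neighbour Dgkq reached 7.6 TPM. Ctsl, Grn, Atp6v0b, Atp6v1e1 and Atp6v1h overlap opposite-strand genes that stayed below 1 TPM. All 8 macrophage markers examined were expressed, and the 14 markers of T cells, B cells, fibroblasts and epithelial cells stayed at or below 0.672 TPM. This goes with the macrophage label but does not tell RAW264.7 from other mouse macrophages.

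A gene passed the test at a Benjamini-Hochberg adjusted p below 0.05 over 12819 genes in limma, on log2(TPM + 1), which understates the change of low genes. Past both limits means a fold change above 1.5 or below 0.67 as well. Of the 53 genes, 52 had a mean of at least 1 TPM and were tested. The remaining gene, the cathepsin Ctsh, did not exceed 0.224 TPM in any sample. The set was abundant: 51 genes had a mean of at least 10 TPM and 31 a mean of at least 100 TPM, a level reached by 1689 genes of the whole table.

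Promoter sequence was examined because the MiT factors Tfeb and Tfe3 are members of the set and had lower levels with LPS. RefSeq windows running from 250 bases before to 50 bases after each start (build GRCm38.p6) could be matched to 45 of the 53 genes. These 45 genes had 54 windows, and a gene was counted if any of its windows held the letters. The palindrome CACGTG occurred in 16 of these 45 genes (35.6%) against 2187 of all 27025 genes with a window (8.09%). The longer palindrome TCACGTGA, which contains it, occurred in 8 of 45 genes (17.8%) against 1.12% of all genes with a window. Windows with CACGTG were found for 5 of 9 peptidases, 4 of 11 glycosidases, 0 of 5 lipid genes, 2 of 6 membrane proteins, 1 of 3 regulators and 4 of 10 V-ATPase genes. The following stretches belong to genes with different responses, a V-ATPase subunit that rose, hydrolases and membrane proteins that fell, and Lamp1, which has 4 copies within 81 bases and did not pass in any comparison. Capitals mark TCACGTGA, or CACGTG in Lamp1, and each is written 5′ to 3′ on the strand of the gene.
Atp6v1a, chr16:44139374-44139401, minus strand, no annotated exon: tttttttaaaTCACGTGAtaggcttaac
Ctsd, chr7:142387909-142387936, minus strand, in an annotated exon of Ctsd: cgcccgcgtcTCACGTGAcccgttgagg
Cln3, chr7:126583341-126583368, minus strand, in an annotated exon of Cln3: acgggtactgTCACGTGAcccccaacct
Mcoln1, chr8:3500463-3500490, plus strand, in an annotated exon of Mcoln1: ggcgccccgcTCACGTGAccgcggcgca
Gla, chrX:134601216-134601243, minus strand, in an annotated exon of Hnrnph2: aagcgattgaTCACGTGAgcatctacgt
Gla, chrX:134601183-134601210, minus strand, in an annotated exon of Hnrnph2: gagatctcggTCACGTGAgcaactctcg
Lamp1, chr8:13159080-13159160, plus strand, no annotated exon: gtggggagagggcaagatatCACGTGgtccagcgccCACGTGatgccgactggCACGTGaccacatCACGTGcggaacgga

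These letters are a description of sequence and not evidence of binding in these cells. In LPS versus DMSO, where 26.2% of all genes tested were higher and 34.2% lower, of the 16 genes with CACGTG 2 were higher, 12 lower and 2 did not pass. Of the 29 without it 3 were higher, 17 lower and 9 did not pass. In LPS + Ska versus LPS, where 8.89% of all genes were higher and 19.7% lower, the counts were 4 higher, 2 lower and 10 not passed with CACGTG, and 6, 3 and 20 without it. Nothing particular to genes with these letters is read from the counts.

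LPS versus DMSO asked how the stimulus alone altered the set. Most tested lysosomal hydrolases were lower, while genes of the proton pump lay on both sides. Of 52 genes, 7 were higher (13.5%, against 26.2% of all genes tested) and 32 lower (61.5%, against 34.2%), and 13 did not pass. Past both limits, 2 were higher (12.7% of all genes) and 20 lower (20.0% of all genes). Among the 8601 genes with a mean of at least 10 TPM, which are closer to the set in level, the shares were 30.4% higher and 37.2% lower, and 12.5% and 19.4% past both limits. The median log2 fold change was -0.31, beside -0.07 over all genes tested. All 39 genes that passed did so with the recovered values. Over all genes tested, 24.8% were higher and 33.0% lower with those values, so calls were mostly kept in general. In none of the 39 did the LPS and DMSO columns overlap. Passing the test largely implies this, and LPS replicate 5, being midway, can never be the outermost column. Among the 25 tested hydrolases (the peptidases, the glycosidases, Asah1, Smpd1, Lipa and Ppt1), 19 were lower (76.0%) and 1 was higher (4.0%). Their median was -0.60.

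LPS + Ska versus LPS asked what skatole changed in stimulated cells. Changes were fewer, and most were small. In this comparison 11 genes were higher (21.2%, against 8.89% of all genes) and 6 lower (11.5%, against 19.7%), and 35 did not pass. Past both limits were 2 higher genes, Lipa and Ctsl (3.35% of all genes), and 0 lower genes (6.14% of all genes). Among genes of at least 10 TPM the shares were 10.1% higher and 21.9% lower, and 2.80% and 4.20% past both limits. Of the 17 genes that passed, 10 also passed with the recovered values. These gave 7 higher (13.5%, against 5.9% of all genes) and 3 lower (5.77%, against 12.7%), so calls were lost over all genes too. The median was 0.05, beside -0.10 over all genes. Scaling the columns to a common median ratio moved the all-gene median to -0.00. It gave 21 higher (40.4%, against 14.3% of all genes) and 3 lower members (5.77%, against 13.1%). The counts of higher and lower genes thus depended on the scale. In both settings the share of members exceeded that of all genes among the higher and fell short of it among the lower.

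LPS + Ska versus DMSO shares its samples with the other comparisons. It gave 9 higher genes (22.7% of all genes), 34 lower (40.6% of all genes) and 9 that did not pass, with 5 higher (11.4% of all genes) and 20 lower (25.3% of all genes) past both limits. Among genes of at least 10 TPM the shares were 26.5% higher and 43.6% lower, and 11.4% and 24.5% past both limits. The median was -0.35, beside -0.18 over all genes. The same scaling moved the all-gene median by 0.16 here. It left 13 higher (31.8% of all genes) and 25 lower (31.6% of all genes), with 8 of the 43 calls lost and 1, Ctsd, turned in sign.

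**Figure D1:**
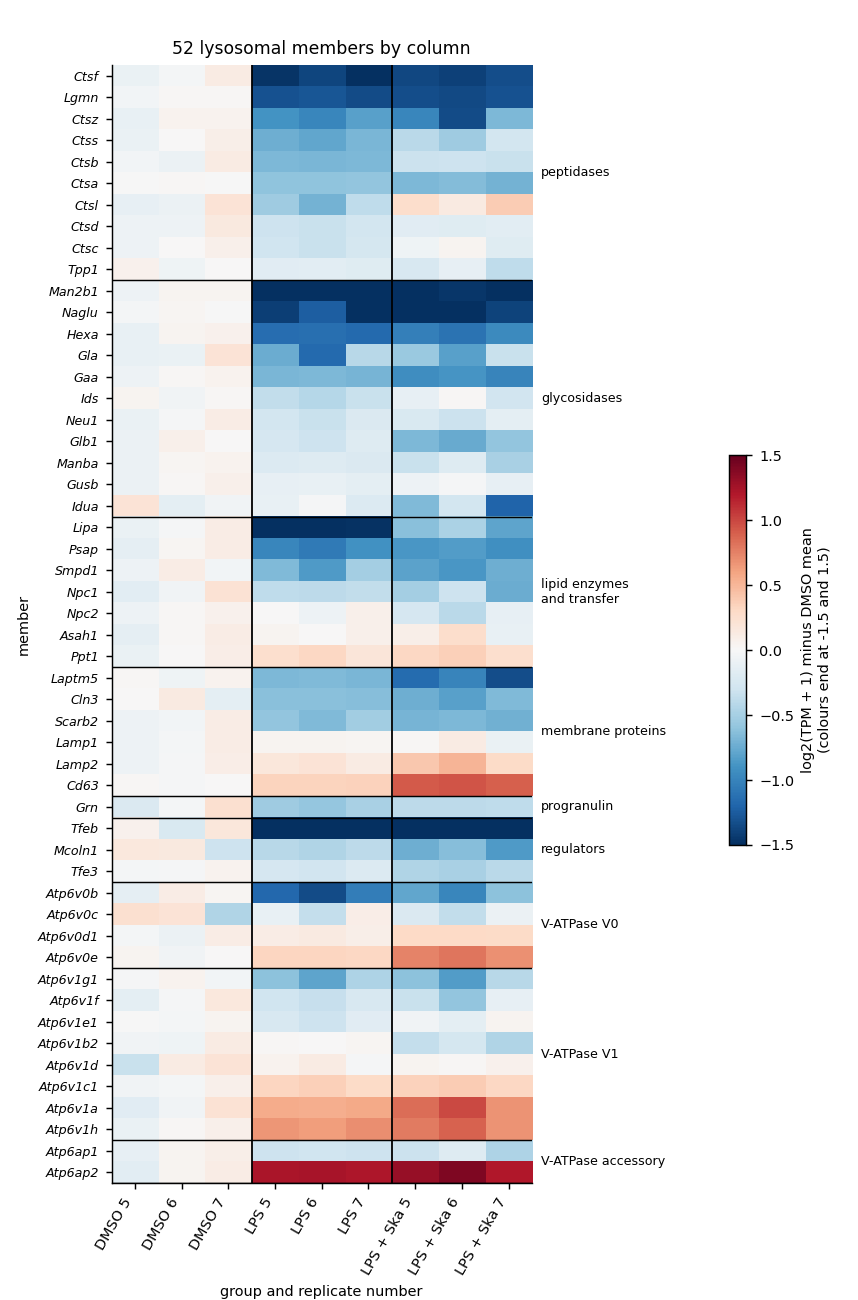
Level of the 52 tested genes in each of the 9 columns, as log2(TPM + 1) minus the DMSO mean of the gene, with the genes grouped by role and colours ending at -1.5 and 1.5. Tfeb, Man2b1 and Lipa stand far below the DMSO mean in the LPS columns, Atp6ap2 stands above it in both LPS-treated groups, and Lipa and Ctsl are higher in LPS + Ska than in LPS.

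Peptidases were lower with LPS in 9 of 10 tested genes (34.2% of all genes tested), with a median log2 fold change of -0.64. Of these, 6 were past both limits (20.0% of all genes). With skatole added, 4 of 10 were higher (8.89% of all genes) and 0 lower (19.7%), with a median of 0.13. Their summed level was 4042, 4146 and 4475 TPM in DMSO, 2673, 2611 and 2736 TPM in LPS and 3056, 2940 and 3172 TPM in LPS + Ska. The 3 groups of sums did not overlap.

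Ctsl, an endopeptidase that degrades engulfed and autophagic protein (chr13:64359337-64370890 in mm10), stood at 246, 250.4 and 309 TPM in DMSO, 184, 163 and 204 TPM in LPS and 320.4, 292 and 348 TPM in LPS + Ska. Its LPS columns lay below both other groups. The log2 fold change in LPS + Ska versus LPS was 0.80 ± 0.11 (SE), with an adjusted p of 0.0011 and a recovered adjusted p of 0.0044. In LPS versus DMSO it was -0.54 ± 0.11, with an adjusted p of 0.0022. LPS + Ska and DMSO columns overlapped, and that difference, 0.26, did not pass (adjusted p = 0.066).

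Ctsb, another cysteine cathepsin (chr14:63122462-63145923), stood at 776, 751 and 867 TPM in DMSO, 497, 494 and 499.7 TPM in LPS and 637, 642 and 632 TPM in LPS + Ska. Skatole-treated columns lay between the other groups and overlapped neither. It fell by 0.68 ± 0.06 on the log2 scale with LPS (adjusted p = 9.4e-06) and was higher by 0.36 ± 0.06 in LPS + Ska versus LPS (adjusted p = 0.002, recovered adjusted p = 0.016). Ctss, which cleaves the invariant chain of MHC class II in antigen presenting cells, followed the same order. It stood at 446, 480.3 and 509 TPM in DMSO, 287, 277 and 298 TPM in LPS and 362, 331 and 393 TPM in LPS + Ska. The log2 fold changes were -0.73 ± 0.07 with LPS (adjusted p = 2.9e-05) and 0.33 ± 0.07 with skatole added (adjusted p = 0.01, recovered adjusted p = 0.024).

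Ctsc, which activates granule serine proteases, was named after its values were seen, as the fourth peptidase that passed. It was higher with skatole by 0.23 ± 0.07 (adjusted p = 0.035), but its recovered adjusted p was 0.082. The call was lost without any single LPS column and without LPS + Ska replicate 5 or 6, with log2 fold changes from 0.18 to 0.28 over the 6 fits.

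Other peptidases were lower with LPS and gave no call for skatole. Lgmn, the asparaginyl endopeptidase (chr12:102394084-102439813), stood at 435, 453 and 454 TPM in DMSO, 179, 183 and 176 TPM in LPS and 177, 174 and 180.2 TPM in LPS + Ska. It fell by 1.31 ± 0.04 on the log2 scale with LPS (adjusted p = 4.5e-08), and the LPS and LPS + Ska columns overlapped. Ctsf, a cysteine cathepsin, stood at 54.2, 57.1 and 63.4 TPM in DMSO, 20.3, 21.8 and 18.7 TPM in LPS and 21.9, 21.4 and 22.4 TPM in LPS + Ska. It fell by 1.48 ± 0.08 with LPS (adjusted p = 7.2e-07), the largest drop among the peptidases.

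Ctsz, a carboxypeptidase, stood at 581, 651 and 647 TPM in DMSO, 336, 316 and 356 TPM in LPS and 318, 246 and 390.4 TPM in LPS + Ska, and fell by 0.90 ± 0.14 with LPS (adjusted p = 0.00044). Ctsa, which protects and activates sialidase and beta-galactosidase, stood at 572, 579 and 571 TPM in DMSO, 378, 376 and 379.8 TPM in LPS and 358, 365 and 351 TPM in LPS + Ska, and fell by 0.60 ± 0.04 (adjusted p = 2.5e-06). Both kept LPS-treated levels clear of DMSO in every column. Ctsd, the aspartic protease, which had the highest mean of the peptidases in each group, in DMSO not apart from Ctsb, stood at 766, 765 and 888 TPM in DMSO, 650.1, 638 and 662 TPM in LPS and 717, 711 and 722 TPM in LPS + Ska. It fell by 0.31 ± 0.06 with LPS (adjusted p = 0.002) and did not pass in LPS + Ska versus LPS, where scaling made it higher (0.24, adjusted p = 0.011). Tpp1, a tripeptidyl peptidase, did not pass with LPS (-0.17, adjusted p = 0.061).

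**Figure D2:**
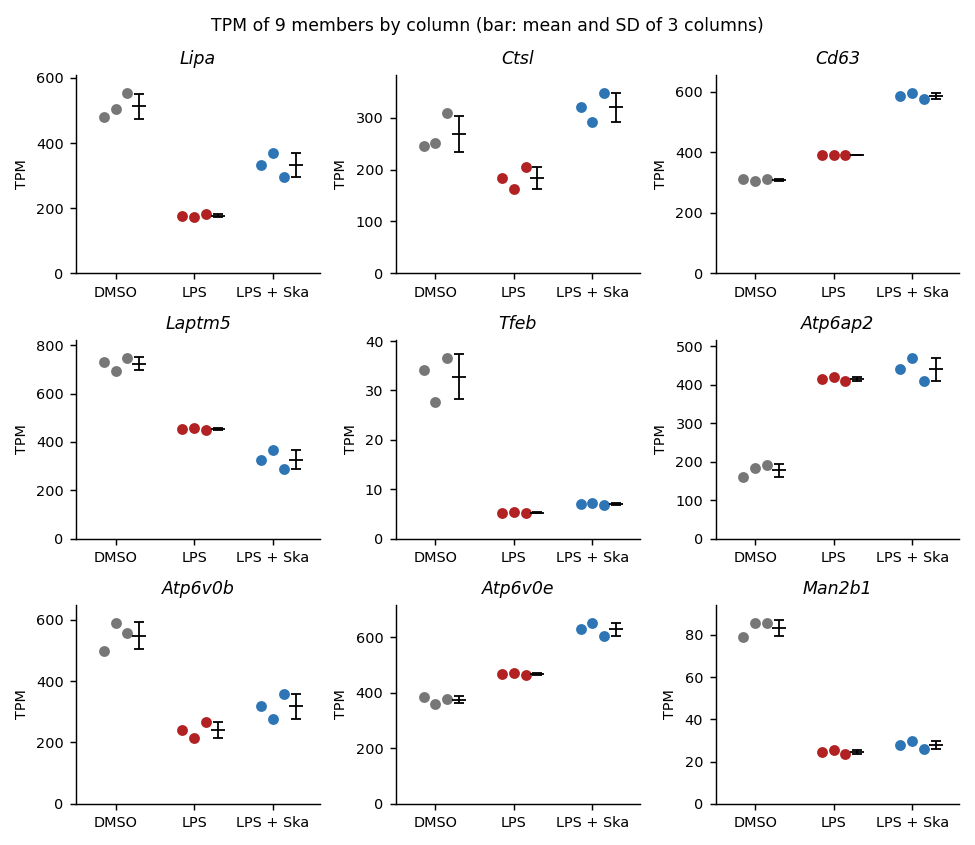
TPM of 9 genes in each column of the DMSO, LPS and LPS + Ska groups (dots), with the mean and SD of the 3 columns (bar). Lipa and Ctsl show an LPS level below both other groups, Cd63 and Atp6v0e step up from DMSO to LPS to LPS + Ska without overlap, and Laptm5 steps down.

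Glycosidases and related enzymes were lower with LPS in 8 of 11 genes (72.7%, against 34.2% of all genes tested). Of these, 5 were past both limits (45.5%, against 20.0%), and the median was -0.38. In LPS + Ska versus LPS, 0 were higher (8.89% of all genes) and 2 lower (18.2%, against 19.7%), with a median of 0.05. After median-ratio scaling that became 4 higher (36.4%, against 14.3% of all genes) and 1 lower (9.09%, against 13.1%). Their summed level was 958, 1031 and 1063 TPM in DMSO, 661, 664 and 659 TPM in LPS and 675, 679.6 and 669.6 TPM in LPS + Ska.

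Man2b1, the lysosomal alpha-mannosidase (chr8:85083270-85098282), had the largest drop among the enzymes. It stood at 79.0, 85.4 and 85.7 TPM in DMSO, 24.5, 25.3 and 23.8 TPM in LPS and 27.7, 29.5 and 25.9 TPM in LPS + Ska, and fell by 1.72 ± 0.07 on the log2 scale with LPS (adjusted p = 1.3e-07). Naglu, which removes N-acetylglucosamine from heparan sulfate, stood at 39.3, 40.9 and 40.0 TPM in DMSO, 14.5, 16.4 and 12.5 TPM in LPS and 13.6, 12.5 and 14.7 TPM in LPS + Ska, a drop of 1.42 ± 0.10 with LPS (adjusted p = 4e-06). Hexa, the alpha subunit of beta-hexosaminidase (chr9:59539540-59565109), stood at 314, 350.0 and 356 TPM in DMSO, 153, 155 and 151 TPM in LPS and 166, 157 and 175 TPM in LPS + Ska, a drop of 1.15 ± 0.06 (adjusted p = 6.5e-07). In these 3 genes every LPS-treated column was below every DMSO column, and none passed in LPS + Ska versus LPS. After scaling Man2b1 and Hexa passed there (0.26 and 0.22, adjusted p = 0.009 and 0.032).

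Gaa, which degrades glycogen, and Glb1, the lysosomal beta-galactosidase, were the glycosidases lower with skatole. Glb1 stood at 38.6, 43.4 and 41.4 TPM in DMSO, 34.3, 32.9 and 35.7 TPM in LPS and 25.5, 23.9 and 27.0 TPM in LPS + Ska. The groups did not overlap, and the log2 fold change in LPS + Ska versus LPS was -0.42 ± 0.07 (adjusted p = 0.0033, recovered adjusted p = 0.017). Its lower level with LPS, -0.26 (adjusted p = 0.013), was lost without LPS replicate 6 (-0.23, adjusted p = 0.051) and after scaling (adjusted p = 0.069). Gaa stood at 47.1, 50.4 and 51.3 TPM in DMSO, 30.3, 30.6 and 30.1 TPM in LPS and 25.4, 26.4 and 24.5 TPM in LPS + Ska. It fell by 0.69 ± 0.06 with LPS (adjusted p = 1.5e-05). The change with skatole, -0.25 ± 0.06 (adjusted p = 0.017), had a recovered adjusted p of 0.069 and was lost without LPS replicate 5 or 6 and without LPS + Ska replicate 5, at -0.25, -0.24 and -0.25.

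Gla, alpha-galactosidase, stood at 18.8, 19.0 and 23.5 TPM in DMSO, 11.7, 8.49 and 14.9 TPM in LPS and 13.5, 11.1 and 15.9 TPM in LPS + Ska, and fell by 0.78 ± 0.19 with LPS (adjusted p = 0.0064). Idua, which removes iduronic acid from heparan and dermatan sulfate, stood at 12.8, 9.82 and 10.5 TPM in DMSO, 10.1, 10.9 and 9.36 TPM in LPS and 6.55, 8.89 and 4.20 TPM in LPS + Ska. Its difference with skatole, -0.60 ± 0.21, did not pass (adjusted p = 0.055), although the columns did not overlap. It passed without LPS + Ska replicate 6 (-0.82, adjusted p = 0.0077). Gusb, beta-glucuronidase and a gene often used as a reference, stood at 291, 312 and 325 TPM in DMSO, 283, 287 and 279 TPM in LPS and 294, 304 and 283 TPM in LPS + Ska, and did not pass in any comparison, but passed as higher in LPS + Ska versus LPS after scaling (0.15, adjusted p = 0.025). After scaling it also passed as higher in LPS + Ska versus DMSO (0.11, adjusted p = 0.045). The sulfatase Ids (adjusted p = 0.004) and the sialidase Neu1 (adjusted p = 0.0097) were lower with LPS by less than 1.5-fold, and the mannosidase Manba did not pass (adjusted p = 0.054). Ids did not pass in LPS + Ska versus LPS (0.24, adjusted p = 0.058) but was higher there after scaling (0.34, adjusted p = 0.009).

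Lipid genes were 1 higher (14.3%, against 26.2% of all genes tested) and 4 lower (57.1%, against 34.2%) of 7 with LPS, with a median of -0.38. With skatole added 1 was higher (14.3%, against 8.89%) and 1 lower (14.3%, against 19.7%), with a median of 0.05. Lipa, the acid lipase that hydrolyses cholesteryl esters and triglycerides of engulfed lipoproteins (chr19:34492318-34527474), changed most with skatole of all 52 genes. It stood at 479, 504 and 555 TPM in DMSO, 177, 172 and 183 TPM in LPS and 332, 368 and 296 TPM in LPS + Ska. No columns of the 3 groups overlapped. It fell by 1.52 ± 0.08 on the log2 scale with LPS (adjusted p = 7.2e-07), the group means being 513 ± 38.6 and 177 ± 5.07 TPM (SD, n = 3 columns). With skatole added the mean was 332 ± 36.0 TPM, higher than with LPS alone by 0.90 ± 0.08 (adjusted p = 0.00015, recovered adjusted p = 0.00088) and below DMSO by a log2 fold change of -0.63 (adjusted p = 0.00014).

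Psap encodes the precursor of the saposins, which present sphingolipids to their hydrolases (chr10:60277627-60302597). It stood at 491, 551 and 581 TPM in DMSO, 272, 258 and 287 TPM in LPS and 293, 301 and 285 TPM in LPS + Ska, and fell by 0.98 ± 0.07 with LPS (adjusted p = 3.4e-06). Smpd1, acid sphingomyelinase, stood at 17.1, 19.6 and 17.4 TPM in DMSO, 11.0, 9.57 and 12.4 TPM in LPS and 9.91, 9.37 and 10.4 TPM in LPS + Ska, and fell by 0.67 ± 0.11 (adjusted p = 0.00046). Neither passed in LPS + Ska versus LPS, and Psap passed as higher there after scaling (0.21, adjusted p = 0.024). Ppt1, a palmitoyl-protein thioesterase, was the hydrolase that was higher with LPS (0.25 ± 0.06, adjusted p = 0.0081). Asah1, acid ceramidase, did not pass in any comparison, but was higher in LPS + Ska versus DMSO after scaling (0.26, adjusted p = 0.014).

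The cholesterol carriers Npc1 and Npc2 pass cholesterol out of the lysosome. Npc2 stood at 94.5, 101 and 104 TPM in DMSO, 99.8, 94.2 and 105 TPM in LPS and 83.3, 75.0 and 91.5 TPM in LPS + Ska. It was lower with skatole by a log2 fold change of -0.26 ± 0.08 (adjusted p = 0.037), with a recovered adjusted p of 0.058 and an adjusted p of 0.19 after scaling. That call was lost without LPS replicate 5 or 7 and without LPS + Ska replicate 5 or 6, with values from -0.33 to -0.19 over the 6 fits. Npc1 was lower with LPS (-0.38, adjusted p = 0.024), and this was lost without DMSO replicate 7 (-0.27) and without LPS replicate 5, 6 or 7 (-0.38, -0.37 and -0.38).

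Membrane proteins went in different directions. With LPS 1 of 6 was higher (26.2% of all genes tested) and 3 lower (34.2%), with a median of -0.28. With skatole added 2 were higher (8.89% of all genes) and 1 lower (19.7%). The median there was -0.06 and became 0.03 after scaling. Calls in both directions also occurred over all genes, so nothing particular to this role is read from 6 genes. Cd63, a tetraspanin of late endosomes and lysosomes (chr10:128900989-128912822), stood at 311, 304 and 311 TPM in DMSO, 391, 391 and 391 TPM in LPS and 586, 597 and 575 TPM in LPS + Ska. The groups did not overlap, and it rose at both steps, by 0.34 ± 0.04 with LPS (adjusted p = 8.6e-05) and by 0.58 ± 0.04 with skatole added (adjusted p = 3.1e-05, recovered adjusted p = 0.00078). A processed copy, Cd63-ps, shares 46.9% of its sequence stretches with Cd63 and stood between 34.5 and 67.3 TPM, so some reads may have been split between them. Laptm5, a lysosomal protein of blood cells (chr4:130913125-130936141), ran the other way at 733, 693 and 748 TPM in DMSO, 452, 456 and 448 TPM in LPS and 326, 365 and 287 TPM in LPS + Ska. It was lower at both steps, by log2 fold changes of -0.68 ± 0.08 (adjusted p = 7.5e-05) and -0.48 ± 0.08 (adjusted p = 0.0026, recovered adjusted p = 0.0054), without overlap.

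Lamp1, a main glycoprotein of the lysosomal membrane and the most abundant of the 6 membrane proteins by its mean over all 9 columns, stood at 702, 725 and 805 TPM in DMSO, 764, 767 and 761 TPM in LPS and 752, 811 and 694 TPM in LPS + Ska, and did not pass in any comparison. It was higher in LPS + Ska versus DMSO after scaling (0.20, adjusted p = 0.0095). Its relative Lamp2, named after its values were seen, was higher with skatole by 0.24 ± 0.07 (adjusted p = 0.03). Its recovered adjusted p was 0.062, and the call was lost without any single LPS column and without LPS + Ska replicate 5 or 6 (0.18 to 0.30 over the 6 fits). Scarb2, the receptor that carries beta-glucocerebrosidase to the lysosome, stood at 26.0, 26.6 and 29.8 TPM in DMSO, 17.9, 17.0 and 18.7 TPM in LPS and 16.5, 16.8 and 16.2 TPM in LPS + Ska, and fell by 0.59 ± 0.08 with LPS (adjusted p = 0.00014). Cln3, the membrane protein mutated in juvenile Batten disease, stood at 83.4, 91.5 and 74.8 TPM in DMSO, 53.2, 53.4 and 53.1 TPM in LPS and 49.4, 46.7 and 52.2 TPM in LPS + Ska, and fell by 0.63 ± 0.08 (adjusted p = 0.0001). Neither passed in LPS + Ska versus LPS. Grn, which encodes progranulin, a precursor that is processed in lysosomes, stood at 499, 568 and 684 TPM in DMSO, 400.2, 388 and 412 TPM in LPS and 442, 441 and 443 TPM in LPS + Ska. It fell by 0.53 ± 0.10 with LPS (adjusted p = 0.0011), and its difference with skatole, 0.14, did not pass (adjusted p = 0.29).

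The regulators were lower with LPS in 3 of 3 genes, where 34.2% of all genes tested were lower. Tfeb, the transcription factor known for activating lysosomal genes (chr17:47737030-47792419), showed the largest fold change of the set in that comparison. It stood at 34.0, 27.7 and 36.6 TPM in DMSO, 5.21, 5.31 and 5.10 TPM in LPS and 6.95, 7.11 and 6.78 TPM in LPS + Ska, and fell by 2.44 ± 0.11 on the log2(TPM + 1) scale with LPS (adjusted p = 2.1e-07). The LPS and LPS + Ska columns did not overlap, but the difference, 0.36 ± 0.11 (adjusted p = 0.034), had a recovered adjusted p of 0.12. It was lost without any single one of the 6 LPS and LPS + Ska columns, at values from 0.34 to 0.37. Tfe3, its close relative, stood at 53.4, 53.8 and 56.5 TPM in DMSO, 45.8, 44.3 and 47.2 TPM in LPS and 39.7, 38.5 and 40.9 TPM in LPS + Ska. It fell by 0.25 ± 0.06 with LPS (adjusted p = 0.0042). Its lower level with skatole, -0.20 ± 0.06 (adjusted p = 0.029), had a recovered adjusted p of 0.097 and an adjusted p of 0.21 after scaling, and was lost without any single LPS column and without LPS + Ska replicate 5 or 6 (-0.22 to -0.18).

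Mcoln1, the lysosomal calcium channel whose opening activates calcineurin toward TFEB, stood at 70.4, 70.1 and 50.7 TPM in DMSO, 46.9, 46.0 and 47.8 TPM in LPS and 37.4, 40.2 and 34.6 TPM in LPS + Ska. It was lower with LPS by a log2 fold change of -0.42 ± 0.12 (adjusted p = 0.013), which was lost without DMSO replicate 5 or 6 (-0.34 in both). The difference with skatole, -0.32 ± 0.12, did not pass (adjusted p = 0.073), though the columns did not overlap. In LPS + Ska versus DMSO, Tfeb fell by 2.08, Mcoln1 by 0.74 and Tfe3 by 0.45 (adjusted p = 5.2e-07, 0.00049 and 0.00011). RNA levels do not show where TFEB and TFE3 proteins were in the cell.

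**Figure D3:**
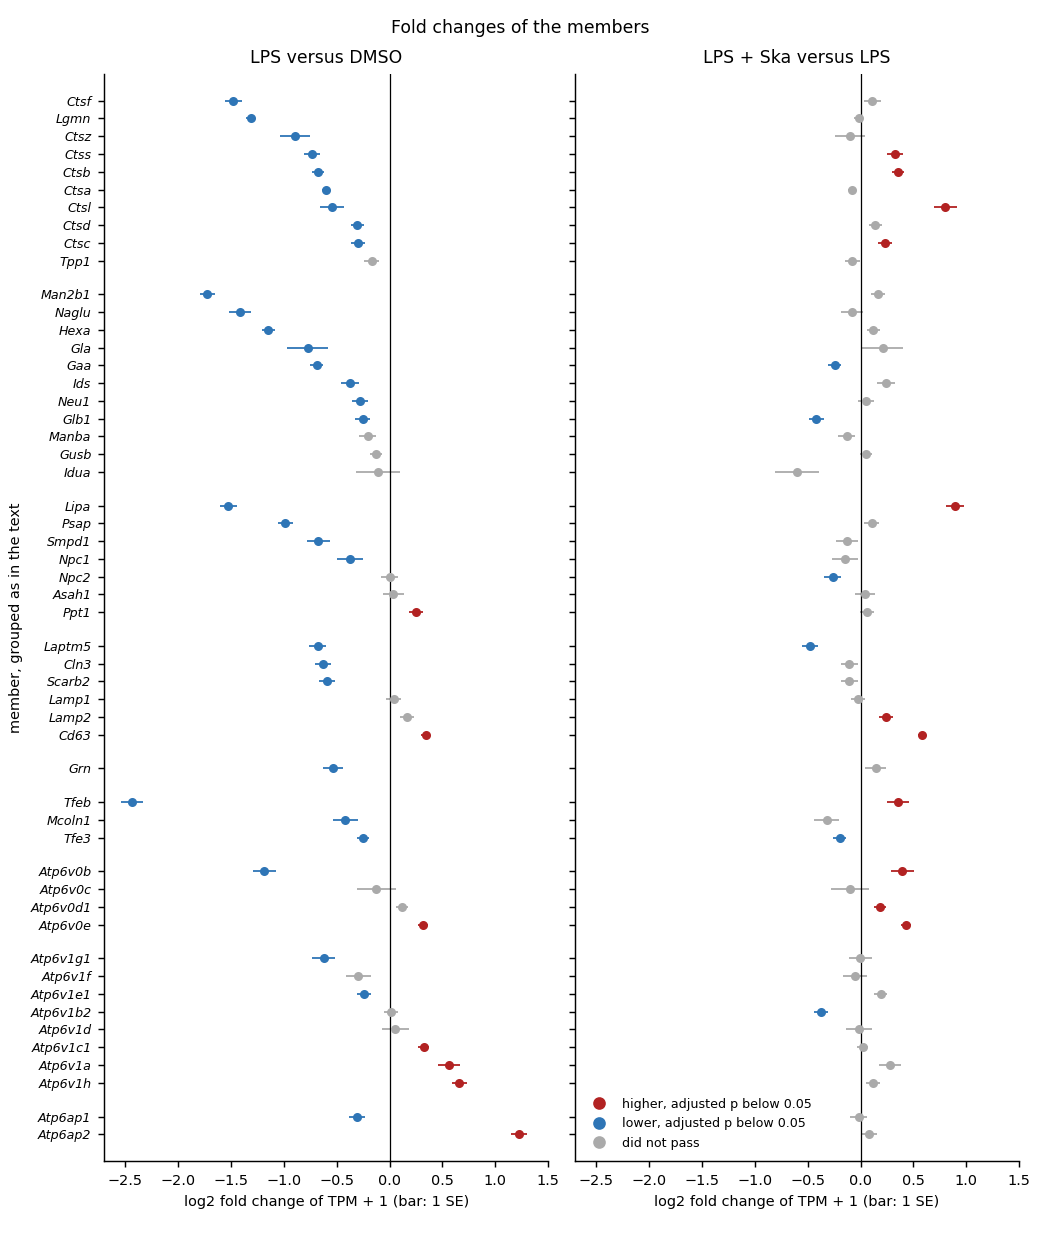
Log2 fold change with 1 SE for each of the 52 tested genes, grouped by role, in LPS versus DMSO and in LPS + Ska versus LPS (red higher, blue lower, grey did not pass). In the first comparison 32 genes are lower and 7 higher, with V-ATPase genes on both sides, and in the second 11 are higher and 6 lower and most lie close to 0.

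The V-ATPase genes did not move as a block. With LPS 5 of 14 were higher (26.2% of all genes tested) and 4 lower (34.2%). Calls on both sides were thus common over all genes too. The median was 0.04 beside -0.60 for the hydrolases. With skatole added 3 were higher (8.89% of all genes) and 1 lower (19.7%), with a median of 0.05. Scaling made this 7 higher (14.3% of all genes) and 1 lower (13.1%). Their summed level was 3101, 3250.4 and 3179 TPM in DMSO, 3194, 3088 and 3300.3 TPM in LPS and 3458, 3471 and 3445 TPM in LPS + Ska. The DMSO and LPS sums overlapped, but after scaling they did not, at 2911 to 3064 and 3100 to 3258, with LPS + Ska at 3605 to 3780. These sums include Atp6v0c, which shares sequence with the processed copy Atp6v0c-ps2. With that copy added the sums ran from 4088 to 4239 TPM in DMSO, from 4051 to 4224 TPM in LPS and from 4153 to 4163 TPM in LPS + Ska, and all 3 groups overlapped. Without Atp6v0c the LPS + Ska sums, 3007 to 3111 TPM, lay above those of DMSO (2551 to 2839 TPM) and LPS (2725 to 2804 TPM). The ratio of summed hydrolases to summed V0 and V1 subunits, which does not depend on the scaling of a column, was 2.20 ± 0.13 in DMSO, 1.48 ± 0.04 in LPS and 1.55 ± 0.002 in LPS + Ska (SD, n = 3 columns). DMSO columns ran from 2.12 to 2.36, above every LPS-treated column. Without Atp6v0c the ratios were 2.66 ± 0.03, 1.78 ± 0.01 and 1.81 ± 0.02, and with the copy added 1.61 ± 0.08, 1.08 ± 0.01 and 1.24 ± 0.005.

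In V0, Atp6v0e, a small membrane subunit (chr17:26663231-26699647), stood at 385, 360.5 and 376 TPM in DMSO, 466, 469 and 464 TPM in LPS and 627, 651 and 604 TPM in LPS + Ska. It rose at both steps without overlap, by 0.32 ± 0.05 with LPS (adjusted p = 0.00033) and by 0.43 ± 0.05 with skatole added (adjusted p = 0.00037, recovered adjusted p = 0.0036). Atp6v0b, a subunit of the proton-carrying ring (chr4:117884326-117887333), stood at 499, 589 and 557 TPM in DMSO, 241, 215 and 266 TPM in LPS and 317, 277 and 358 TPM in LPS + Ska. It fell by 1.19 ± 0.11 with LPS (adjusted p = 1.7e-05). Its higher level with skatole, 0.39 ± 0.11 (adjusted p = 0.025, recovered adjusted p = 0.03), was lost without LPS replicate 5 or 6 (0.40 and 0.32) and without LPS + Ska replicate 5 or 7 (0.39 and 0.30).

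Atp6v0d1, which couples the ring to the V1 stalk, was named after its values were seen. It stood at 161, 163 and 158 TPM in LPS and 182, 183 and 182 TPM in LPS + Ska, a difference of 0.18 ± 0.06 (adjusted p = 0.041) that had a recovered adjusted p of 0.14 and was lost in each of the 6 fits without a column of these groups (0.17 to 0.19). Atp6v0c, the other ring subunit (chr17:24163866-24169702), did not pass in any comparison, but its values are uncertain. The processed copy Atp6v0c-ps2 shares 88.0% of its sequence stretches with it and was listed at a mean of 884 TPM against 434 TPM for Atp6v0c itself. The sum of both was 1483 ± 82.2 TPM in DMSO, 1373 ± 47.0 TPM in LPS and 1099 ± 57.2 TPM in LPS + Ska.

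In V1, Atp6v1h, a regulatory subunit, stood at 113, 123 and 128 TPM in DMSO, 192, 188 and 197 TPM in LPS and 209, 225 and 194 TPM in LPS + Ska, and rose by 0.66 ± 0.07 with LPS (adjusted p = 3.5e-05). Atp6v1a, the catalytic subunit, stood at 133, 144 and 174 TPM in DMSO, 221, 219 and 223 TPM in LPS and 268, 297 and 239.9 TPM in LPS + Ska, and rose by 0.56 ± 0.10 with LPS (adjusted p = 0.0012). Both were higher in every LPS-treated column than in any DMSO column, and after scaling Atp6v1h also passed with skatole added (0.22, adjusted p = 0.012). The difference of Atp6v1a with skatole, 0.28 ± 0.10, did not pass (adjusted p = 0.074), and it passed after scaling (0.37, adjusted p = 0.011) and without LPS + Ska replicate 7 (0.35, adjusted p = 0.037). Atp6v1c1, which bridges V1 and V0, was also higher with LPS (0.32, adjusted p = 0.00054). Atp6v1b2, the nucleotide-binding partner of the catalytic subunit, stood at 272, 270.3 and 307 TPM in DMSO, 286, 283 and 289 TPM in LPS and 221, 236 and 206 TPM in LPS + Ska. It was lower with skatole by a log2 fold change of -0.37 ± 0.07 (adjusted p = 0.0037, recovered adjusted p = 0.016), the V-ATPase gene that was lower in that comparison.

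The stalk subunit Atp6v1g1 stood at 149, 156 and 146 TPM in DMSO, 97.6, 86.6 and 109 TPM in LPS and 97.7, 83.4 and 112 TPM in LPS + Ska, and fell by 0.62 ± 0.11 with LPS (adjusted p = 0.00097). Its stalk partner Atp6v1e1 had a log2 fold change of -0.24 (adjusted p = 0.0089, but 0.073 after scaling), and Atp6v1d and Atp6v1f did not pass. With skatole added Atp6v1e1 did not pass (0.19, adjusted p = 0.052) but was higher after scaling (0.29, adjusted p = 0.015). The accessory subunits, which take part in V-ATPase assembly, differed. Atp6ap2, also known as the prorenin receptor (chrX:12587801-12617049), stood at 159, 183 and 191 TPM in DMSO, 414, 418 and 410.4 TPM in LPS and 439.5, 469 and 409.7 TPM in LPS + Ska, and rose by 1.22 ± 0.08 with LPS (adjusted p = 1.5e-06), the largest rise of the set. Atp6ap1 stood at 241, 271 and 279 TPM in DMSO, 212, 213 and 212 TPM in LPS and 210.2, 230.0 and 190.4 TPM in LPS + Ska, and fell by 0.31 ± 0.08 with LPS (adjusted p = 0.0071). Neither passed with skatole added, at 0.08 for Atp6ap2 (adjusted p = 0.44) and -0.02 for Atp6ap1 (adjusted p = 0.88). After scaling Atp6ap2 passed (0.18, adjusted p = 0.049) and Atp6ap1 turned to 0.08.

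**Figure D4:**
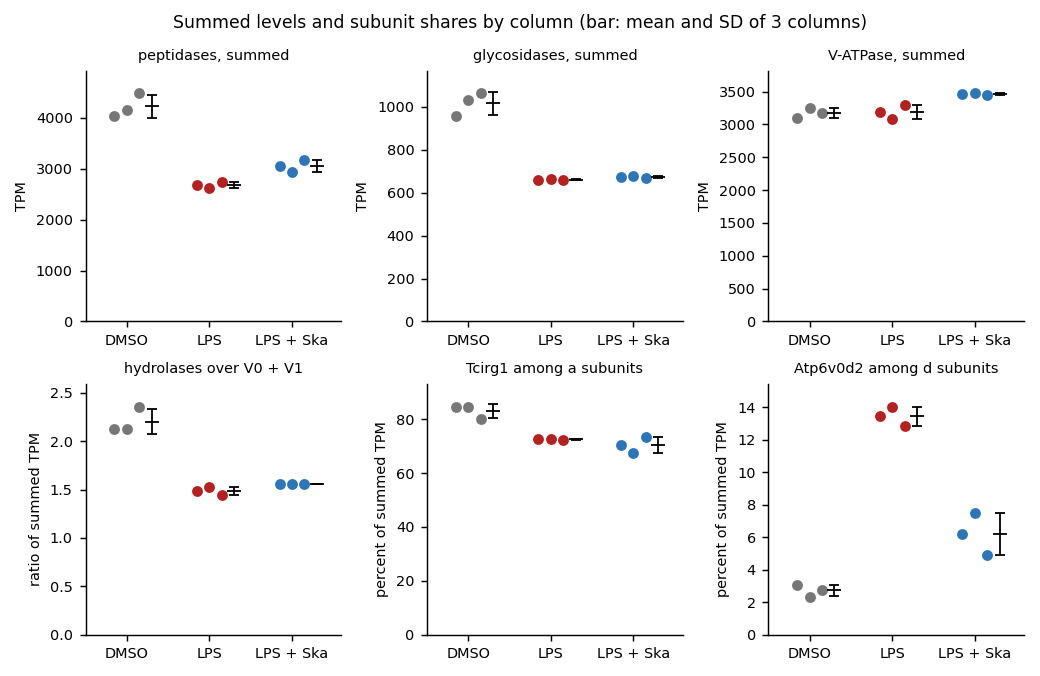
Summed TPM of peptidases, glycosidases and V-ATPase genes, the ratio of summed hydrolases to V0 and V1 subunits, the share of Tcirg1 among a subunits and the share of Atp6v0d2 among d subunits, for each column (dots) with the mean and SD of 3 columns (bar). Peptidase and glycosidase sums and the ratio are lower in both LPS-treated groups than in DMSO, and the Atp6v0d2 share is highest in LPS.

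A further 78 lysosomal genes outside the set were listed from the same pathway, and 70 were tested. With LPS 9 were higher (12.9%, against 26.2% of all genes) and 39 lower (55.7%, against 34.2%). With skatole added 5 were higher (7.14%, against 8.89% of all genes) and 16 lower (22.9%, against 19.7%), shares close to those of all genes, and 1 and 2 of them were past both limits. Those 3 were an iron and manganese transporter, a V-ATPase subunit and a peptidase. Slc11a1, the metal transporter of phagosomes, stood at 169, 170.0 and 170.1 TPM in DMSO, 103, 104 and 103 TPM in LPS and 164, 170.1 and 158 TPM in LPS + Ska, with log2 fold changes of -0.71 (adjusted p = 2.1e-06) with LPS and 0.66 (adjusted p = 3.1e-05) with skatole added. Prcp, a lysosomal carboxypeptidase, stood at 33.4, 33.7 and 33.0 TPM in LPS and 22.0, 26.4 and 17.6 TPM in LPS + Ska, a difference of -0.60 (adjusted p = 0.016) that was lost without LPS replicate 5 or 6 and without LPS + Ska replicate 5 (-0.60, -0.59 and -0.61).

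Atp6v0d2, the d subunit best known from osteoclasts, stood at 4.63, 3.36 and 4.52 TPM in DMSO, 25.0, 26.6 and 23.3 TPM in LPS and 12.1, 14.8 and 9.33 TPM in LPS + Ska. It was higher by 2.34 with LPS (adjusted p = 3e-06) and lower by a log2 fold change of -1.01 with skatole added (adjusted p = 0.0022). Its share of the d subunits was 2.72 ± 0.36% in DMSO, 13.4 ± 0.60% in LPS and 6.21 ± 1.32% in LPS + Ska. Among the a subunits, Tcirg1, the form enriched in osteoclasts and macrophages, made up 83.0 ± 2.63%, 72.5 ± 0.25% and 70.4 ± 2.97%, and Atp6v0a1 made up 7.08, 14.6 and 14.9%. The 7 osteoclast markers examined, which include Atp6v0d2, summed to between 69.2 and 81.2 TPM in DMSO, 116.7 and 129.3 TPM in LPS and 96.6 and 101.4 TPM in LPS + Ska. Without Atp6v0d2 the sums ran from 65.8 to 76.7 TPM, from 93.5 to 102.6 TPM and from 81.7 to 92.0 TPM. With LPS Acp5 and Ctsk were also higher, Ocstamp was lower and Dcstamp did not pass. With skatole added Ocstamp was also lower (-0.53, adjusted p = 0.03), while Acp5, Ctsk and Dcstamp did not pass (adjusted p = 0.81, 0.54 and 0.059). Calcr was at 0 in every column, and the part of these genes in the results was not tested. Of the 8 macrophage markers 1, Cd14, was higher with LPS (26.2% of all genes) and 4, Cd68, Csf1r, Lyz2 and Spi1, lower (34.2%). With skatole added 3, Itgam, Lyz2 and Cd14, were higher (8.89% of all genes) and 0 lower (19.7%). A fall with LPS and a rise with skatole thus also occurred outside the set, in Lyz2 (log2 fold changes -1.05 and 1.19).

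Summed over all 53 genes, the set took 12753 ± 581 TPM in DMSO, 9858 ± 190 TPM in LPS and 10817 ± 97.9 TPM in LPS + Ska (SD, n = 3 columns), or 1.28%, 0.986% and 1.08% of the column totals. In RNA from whole cultures, fewer expressing cells and less RNA per cell cannot be told apart.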

How the data were processed

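RNA from RAW264.7 macrophages was sequenced in 9 samples. The authors deposited the values as TPM for 55401 Ensembl identifiers, of which 55141 matched a symbol. Per the labels' processing notes, reads were handled with fastp 0.20.1, HISAT2 2.2.1 and StringTie 2.0 on mm10. The annotation, strand setting and depth are not given in the sources used here. R 4.3.3 and its package limma 3.58.1 (functions lmFit and eBayes, trend on) gave fold changes on log2(TPM + 1) from all 9 columns, for 12819 genes with a mean of at least 1 TPM, and the fit was tested on simulated data. Replicate 6 and replicate 7 of the LPS-treated groups are replicate 5 plus and minus a difference, and recovered values are replicate 5 plus and minus 0.5 times it. The members and gene lists were chosen with earlier results of these data known. Values are given per column for genes past both limits in any comparison, the 2 of each role with the largest change with skatole, the most abundant of each role and the regulators, 37 in all. Alternatives were a pseudocount of 0.1, no filter or a mean of at least 5 TPM, median-ratio scaling, recovered values, a replicate block, the compared groups alone, and leaving out each column. Recovered values with scaling, sums without Atp6v0c or with its processed copy, and osteoclast markers without Atp6v0d2 were added after the data had been seen. Python 3.11.15, pandas 2.3.3, numpy 2.4.6 and matplotlib 3.10.9 were used. Exon overlaps came from GENCODE.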

Additional observations from a re-analysis of the deposited data

How the results depend on the processing

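The tied LPS-treated columns and the column scale both moved the counts in LPS + Ska versus LPS. Median-ratio scaling gave 21 higher and 3 lower genes (14.3% and 13.1% of all genes, median 0.15). Recovered values gave 7 and 3 (5.9% and 12.7% of all genes). Both together gave 16 and 3 (9.84% and 7.93% of all genes, median 0.15). A filter of at least 5 TPM put 1 gene, Idua, among the lower past both limits. In LPS versus DMSO the median became -0.22 with scaling, with or without recovered values. In LPS + Ska versus DMSO scaling left 12 lower past both limits (17.9% of all genes), with a median of -0.17. Scaling of recovered values also left 12 (17.6% of all genes), with a median of -0.16. Scaled sums of TPM in DMSO, LPS and LPS + Ska were 3965, 2663 and 3266 for peptidases, 955.4, 659 and 720.4 for glycosidases, 2986, 3182 and 3692 for the V-ATPase and 11980, 9821 and 11550 for all members. With scaling, and with scaling of recovered values, Atp6ap1 in LPS + Ska versus LPS turned to 0.080 and 0.087, Ctsd in LPS + Ska versus DMSO to 0.018 and 0.022, and the membrane protein median in LPS + Ska versus LPS to 0.034 and 0.039. Over the fits without 1 column, Atp6ap1 in LPS + Ska versus LPS ran from -0.086 to 0.050. Testing without the filter on low values ended 3 of the 17 calls in LPS + Ska versus LPS, Atp6v0b among them. The cause was not tested.

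Leaving out each column in turn gave 6 to 11 higher and 3 to 6 lower genes in LPS + Ska versus LPS, with 2 to 3 and 0 to 1 past both limits and medians from 0.02 to 0.06. In LPS versus DMSO it gave 7 to 9 higher and 30 to 34 lower, with 2 to 3 and 18 to 22 past both limits and medians from -0.35 to -0.27. In LPS + Ska versus DMSO it gave 9 to 10 higher and 30 to 33 lower, with 5 and 19 to 21 past both limits and medians from -0.41 to -0.30. Sums ran, in DMSO, LPS and LPS + Ska, from 4094 to 4311, 2642 to 2705 and 2998 to 3114 TPM for peptidases, 994.3 to 1047, 659.9 to 662.3 and 672.1 to 677.1 TPM for glycosidases, 3140 to 3215, 3141 to 3247 and 3451 to 3464 TPM for the V-ATPase, and 12450 to 13030, 9763 to 9953 and 10770 to 10870 TPM for all members. In LPS + Ska versus DMSO the calls of Ctsd, Gla, Idua, Atp6v1f, Neu1 and Npc2 were lost in 1 to 4 of 6 fits. Those of Ctsd, Gla, Atp6v1f and Neu1 were lost even without LPS + Ska replicate 5, which lies midway between the other columns. The fold change of Ctsd stayed at -0.17 there, so a lost call does not mean that 1 column set the difference.

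Deviations of samples with the same number correlated at 0.384, 0.151 and 0.128 between LPS and LPS + Ska and from -0.032 to 0.080 in the other 6 pairs, and replicates 6 and 7 of the LPS-treated groups mirror each other by construction, so sample numbers were not used as pairs. With a replicate block, LPS + Ska versus LPS gave 9 higher and 6 lower genes, LPS versus DMSO 7 and 33, and LPS + Ska versus DMSO 10 and 34. Atp6v0d1, Ctsc and Tfeb lost their calls in LPS + Ska versus LPS, with adjusted p of 0.069, 0.065 and 0.057. Because TPM holds no depth, whether small differences exceed counting error is unknown.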
